A study of Mus musculus with 29 samples.

Results

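Livers of 5 old male mice given the MDM2 inhibitor HDM201 were compared with livers of 4 young male mice given vehicle, over all genes in the count table. These 9 males, taken by their labels for sex, age and treatment, are 9 of the 27 mice with counts and of the 29 mice in the labels, and no old vehicle mouse entered the test. The old males were 24 months old, of the C57BL/6J substrain, and received HDM201 at 10 mg/kg by oral gavage each day for 14 days. The young males were 5 months old, of the substrain labelled C57BL6/N, and received the vehicle, methylcellulose in phosphate buffer, over the same 14 days. All mice were killed in the morning, and poly(A) RNA of whole liver was sequenced. Age, substrain and HDM201 thus change together between the groups and cannot be told apart here, nor can the supplier, since mice came from both Jackson Labs and Charles River. Beside several genes the levels of the 4 old vehicle males with counts (24 months, C57BL/6J) are given as levels, and a separate fit of HDM201 against old vehicle males is used for Cish and Cdkn1a alone. The same contrast in females used 5 HDM201 mice of 20 months (C57BL/6J) and 5 vehicle mice of 5 months (C57BL6/N).

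HDM201 blocks MDM2, the ubiquitin ligase that keeps p53 low, and p53 in turn activates genes of growth arrest, repair and death, Mdm2 itself included. The liver consists mainly of hepatocytes, which run the urea cycle, amino acid breakdown, bile acid synthesis and drug clearance, and it also holds Kupffer cells, endothelium, stellate cells, bile duct cells and blood-borne immune cells. With age, mouse liver is known for gathering immune cells and for inflammatory and interferon signaling, and senescent cells release the cytokines, proteases and matrix proteins called the senescence-associated secretory phenotype (SASP).

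Libraries held 16485900 to 19489682 counts in the HDM201 males and 17783844 to 22523294 in the young males, and replicate libraries correlated at r = 0.976 to 0.990 within a group and 0.956 to 0.981 between groups (Pearson, across genes on the log2 scale). Mitochondrially encoded genes took 3.39% to 4.39% of counts in the HDM201 males and 4.61% to 5.55% in the young males, with no overlap. The part of this in the results below was not tested. Alb, the albumin gene of hepatocytes, stood at 59478 to 126379 CPM (the count scaled to library size) in the HDM201 males and 72257 to 81289.6 CPM in the young males, and Xist and the Y-linked genes matched the labelled sex in all 9 libraries. By edgeR's quasi-likelihood test Uty (adjusted p = 0.0119) and Ddx3y (adjusted p = 0.0193) were called lower in the HDM201 males, and Kdm5d and Eif2s3y were not called. Ddx3y was not called without young male 4 (adjusted p = 0.0582). Nnt, which differs between the substrains by a deletion, stood at 1.27 to 2.67 and 2.39 to 3.67 CPM, but a reference made from C57BL/6J lacks the deleted exons, so the count checks nothing. Young male 5 has FPKM values but no column in the count table used here and is in no count test. Its FPKM profile correlated with those of the other young males at r = 0.938 to 0.960, against 0.978 to 0.988 among them, with the acute phase gene Saa1 at 26524 FPKM against 43.2 to 5783 in the others. By limma on log2(FPKM + 1), 1856 genes were called without this mouse and 965 with it.

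Of 14024 genes past the filter on low counts, 2690 (19.2%) were called at an adjusted p under 0.05 by edgeR's quasi-likelihood test, 1630 (11.6%) higher and 1060 (7.56%) lower in the HDM201 males. For 2699 genes (19.2%) every mouse of one group lay above every mouse of the other, and 2181 called genes were without overlap. By limma on log2(FPKM + 1) of the authors' values, which moved the median of all genes from -0.014 to 0.099, 1612 of 1856 called genes were higher (86.9%), against 60.6% here. On that scale the median fold changes of the ER chaperone, lipogenic, lipid droplet, lipoprotein, glucose, and coagulation and complement lists turned from negative to positive, and with young male 5 included so did those of the fatty acid oxidation, bile acid, P450 and respiratory chain lists. Large changes ran mostly upward: 1009 called genes lay above a log2 fold change of 1 and 139 below -1, while the median over all genes tested was -0.014. The median level in the HDM201 males, not corrected for gene length, was 5.65 CPM for the genes that rose and 32.5 CPM for those that fell. In whole liver, more cells of a type and more RNA per cell cannot be told apart. Genes were then read by 49 lists of function or cell type, for which 1308 of 1312 genes were found in the table. Values in brackets after a gene are its log2 fold change, HDM201 over young, with its standard error (SE) and adjusted p from this test, and calls were also checked with each mouse left out. A member that is rare in the young males passes the filter through the HDM201 males alone, so counts of called members describe the lists. Summed CPM over every member found is given for some lists and follows their most abundant members. Each count of called members is to be read against the shares over all genes, 11.6% higher and 7.56% lower.

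**Figure D1:**
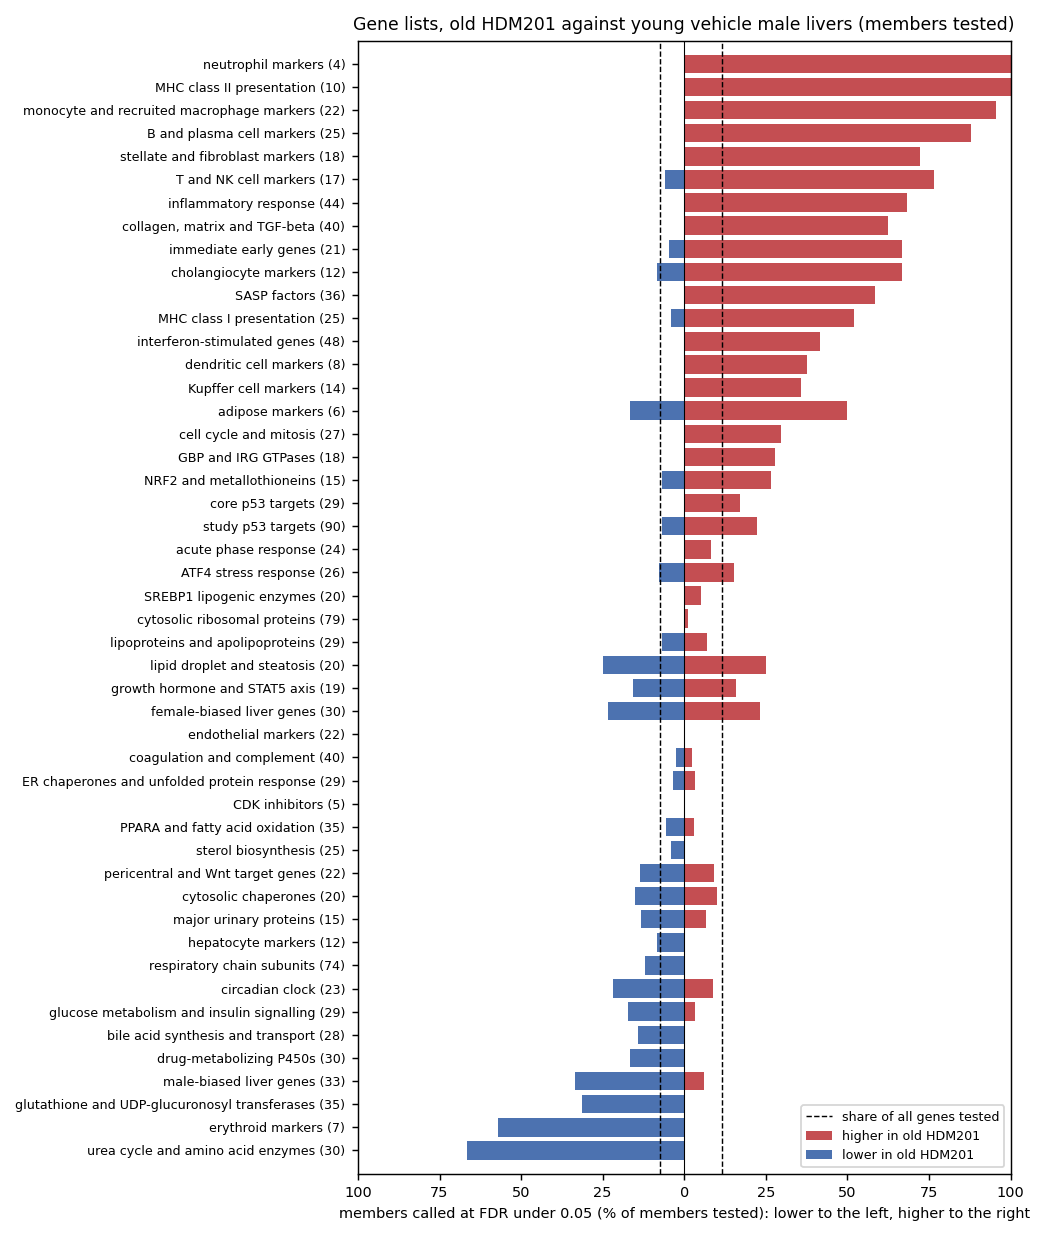
Share of tested members of each gene list called higher (right, red) or lower (left, blue) in old HDM201 males, in percent, with the number tested in brackets. Dashed lines mark the shares over all genes tested, 11.6% higher and 7.56% lower. Immune, matrix and MHC class II lists lie far to the right, and the 20 of 30 urea cycle and amino acid enzymes that fell form the longest bar to the left. The 2 pancreas markers tested are not drawn.

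Mdm2 (chr10:117688875-117710758), the target of the drug and itself activated by p53, stood at 33.4, 31.9, 33.6, 32.3 and 35.4 CPM in HDM201 males 1 to 5 and at 34, 36.1, 36.1 and 33.8 CPM in young males 1 to 4. The groups overlapped, and the log2 fold change was -0.063 ± 0.069 SE, adjusted p = 0.561, with the sign reversed on the FPKM scale (0.089). Trp53, which encodes p53, was likewise not called (0.21, adjusted p = 0.114), though it was without young male 1 (adjusted p = 0.0489). Cdkn1a (chr17:29090976-29100727), the p53 target encoding the cell cycle inhibitor p21, ranged widely, with 38.7, 67.7, 12.7, 7.57 and 21.1 CPM in the HDM201 males and 5.36, 14, 6.73 and 10.9 CPM in the young males. HDM201 males 3 and 4 fell within the young range, and the difference missed the threshold (1.68 ± 0.57 SE, adjusted p = 0.0604), though it passed without HDM201 male 4 (adjusted p = 0.0223). The old vehicle males stood at 2.14 to 16.1 CPM for Cdkn1a and the HDM201 males at 7.57 to 67.7 CPM, with overlap. Cdkn1a was not called in the separate fit of these groups.

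Of 30 core p53 targets, 29 were tested, 5 were called higher (17.2%, against 11.6% over all genes) and none lower, with a median log2 fold change of 0.31. Phlda3, an inhibitor of AKT signaling induced by p53, stood at 3.41, 3.42, 3.28, 4.51 and 2.43 CPM in the HDM201 males and at 0.903, 0.568, 0.76 and 1.13 CPM in the young males, without overlap (2.01 ± 0.26 SE, adjusted p = 0.00148). Eda2r (chrX:97333840-97377216), the ectodysplasin A2 receptor, was at 3.13, 2.24, 1.9, 1.02 and 1.66 CPM against 0.301, 0.455, 0.109 and 0.0907 CPM, again without overlap (3.07 ± 0.48 SE, adjusted p = 0.00297). Plk2, a kinase of the stress response, rose less (0.90 ± 0.14 SE, adjusted p = 0.00298). The old vehicle males stood at 1.57 to 2.62, 0.754 to 2.77 and 15.4 to 18.9 CPM for these 3 genes. Of the wider p53 target list used in the study, 20 of 90 tested members were called higher and 6 lower (median 0.12), together 28.9%, against 19.2% over all genes. The study cites these as established p53 targets, and like the other lists this one was chosen here with earlier results of these data known. The lower ones included Sulf2, a sulfatase of heparan sulfate, at 6.18 to 10.7 against 18.2 to 18.7 CPM (-1.16, adjusted p = 0.000972). No CDK inhibitor gene passed the test among 5 tested. Cdkn1b, which encodes p27, had the highest mean CPM among them over the 9 mice, at 26.5 to 31.7 and 31.9 to 33.7 CPM without overlap (-0.19, adjusted p = 0.0955). Only Cdkn1a was called in any fit with a mouse left out. Cdkn2a, the senescence gene encoding p16 and Arf, did not pass the filter, with 0.558, 0.854, 0.46, 0.268 and 1.93 CPM in the HDM201 males and 0.12, 0, 0.0543 and 0.0454 CPM in the young males. Every HDM201 male lay above every young male at these low counts.

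Markers of monocytes and recruited macrophages rose nearly throughout. Of 23 members, 22 were tested, 21 were called higher and none lower (median log2 fold change 1.92), and their summed level over all members was 288 to 620.1 CPM in the HDM201 males against 118 to 205 CPM in the young males. The old vehicle males summed to 219 to 485 CPM. Lgals3 (chr14:47367751-47386160), encoding the macrophage lectin galectin-3, stood at 9.66, 6.41, 9.72, 10.9 and 11.2 CPM in the HDM201 males and at 1.81, 1.59, 1.41 and 1.41 CPM in the young males. Its log2 fold change was 2.63 ± 0.20 SE, adjusted p = 0.000147, with no overlap. Lyz2, the lysozyme of myeloid cells, rose, at 60.2 to 169 CPM against 16 to 26.5 CPM (2.38 ± 0.27 SE, adjusted p = 0.000724). Cd14, the lipopolysaccharide co-receptor, was at 3.9 to 5.85 CPM against 1.19 to 1.62 CPM (1.75 ± 0.20 SE, adjusted p = 0.00077). Gpnmb, a glycoprotein of lipid-laden macrophages, was among the 10 largest rises of called protein-coding genes without overlap, at 12.6, 6.3, 5.58, 26.5 and 2.76 CPM against 0.0602, 0.114, 0.272 and 0.544 CPM (5.32 ± 0.81 SE, adjusted p = 0.0026). HDM201 male 4 was the highest for it and male 5 the lowest.

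Kupffer cell markers, those of the resident macrophages, moved less evenly. Of 14 tested, 5 were called higher and none lower (median 1.17), with sums of 433 to 925 CPM in the HDM201 males and 294 to 450.2 CPM in the young males. The count was 3 without HDM201 male 3, HDM201 male 5 (where 1 was lower), or young male 1, 3 or 4, 8 without HDM201 male 4 and 10 without young male 2. The complement genes C1qa, C1qb and C1qc, made by macrophages in general, were the first 3 by p. C1qc was at 37.7, 33.2, 41.7, 39.5 and 77.7 CPM against 14.3, 21.3, 10.8 and 13.4 CPM (1.63 ± 0.27 SE, adjusted p = 0.00345), with HDM201 male 5 well above the rest. C1qa (1.58, adjusted p = 0.00358) and C1qb (1.59, adjusted p = 0.00644) rose too, and in them the old vehicle males spanned 26.6 to 70.3 and 23.5 to 61.6 CPM.

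B cell and plasma cell genes rose steeply. Of 26 members, 25 were tested, 22 were called higher and none lower (median 2.16). The list summed to 884 to 1379 CPM in the HDM201 males and 467 to 661 CPM in the young males. Immunoglobulin made up little of the young sum, as all 264 segments together held 15.7 to 47.4 CPM there. Igkc (chr6:70726435-70726966), the constant region of the kappa light chain, stood at 231, 125, 119, 146 and 99.1 CPM in the HDM201 males and at 0.842, 4.49, 2.34 and 2.86 CPM in the young males (5.77 ± 0.42 SE, adjusted p = 0.000147). Jchain, which joins IgA and IgM into polymers, was at 51.5, 24.5, 18.5, 20.4 and 19 CPM against 1.02, 1.99, 1.41 and 1.09 CPM (4.29 ± 0.39 SE, adjusted p = 0.000242), and Iglc2, a lambda constant region, rose (3.65 ± 0.47 SE, adjusted p = 0.00144). Ighg2c, the heavy chain of an IgG subclass and named here after its values were seen, varied widely, at 3.7 to 77.1 CPM among HDM201 males against 0.0543 to 0.625 CPM, and HDM201 male 1 held the highest level of it and of Jchain. Over all 264 immunoglobulin gene segments in the table, of which 30 passed the filter, the sum was 1128, 561, 565, 599 and 465 CPM in HDM201 males 1 to 5 and 26.9, 47.4, 15.7 and 20.2 in young males 1 to 4. Old vehicle males 2 to 5 summed to 328, 158, 195 and 242. Of the segments with any count, 195 had the higher mean in the HDM201 males and 9 in the young males.

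T and NK cell markers were scarce, with 17 of 32 members past the filter. Of these, 13 were called higher and 1 lower (median 2.06), a higher count that dropped to 7 without young male 1 and to 8 without young male 4. All 32 summed to 32.1 to 98.5 CPM in the HDM201 males and 24 to 26.8 CPM in the young males. With members under the filter included, 31 had the higher mean in the HDM201 males and 1 in the young males. Ccl5, a chemokine of T and NK cells, stood at 14, 2.78, 5.29, 4.51 and 5.3 CPM against 0.361, 0.511, 0.978 and 0.862 CPM (3.21 ± 0.50 SE, adjusted p = 0.00297). Cd3e, a chain of the T cell receptor complex, was at 3.07, 1.12, 1.44, 1.5 and 0.994 CPM against 0.241, 0.284, 0.109 and 0.227 CPM (2.89 ± 0.45 SE, adjusted p = 0.0028). HDM201 male 1 was the highest for both. Tox, a transcription factor of exhausted T cells that is transcribed in other cells too, was the member that fell, at 3.86 to 5.39 CPM against 7.33 to 15 CPM (-1.21, adjusted p = 0.00416). Only 4 of 13 neutrophil markers passed the filter, which transcripts this rare in the young males pass through the HDM201 males. All 4 were called higher, among them Csf3r, the G-CSF receptor (1.84, adjusted p = 0.00427), S100a8, a calcium-binding alarmin (3.64, adjusted p = 0.00894), and Mmp9, a gelatinase (2.0, adjusted p = 0.0107). All 13 summed to 6.98 to 41.5 CPM in the HDM201 males and 2.05 to 4.77 CPM in the young males, and each of the 13 had the higher mean in the HDM201 males. Of 8 dendritic cell markers tested, 3 were called higher, a count of 1 without HDM201 male 1, 3 or 5. These were Ccr7, a homing receptor (2.24, adjusted p = 0.012), Flt3, a growth factor receptor (1.99, adjusted p = 0.0189), and Irf8, a transcription factor (0.76, adjusted p = 0.0271). Irf8 was not called without HDM201 male 1, 3 or 5 or without young male 1, 2 or 3 (adjusted p up to 0.0702). The dendritic list summed to 20.9 to 36 CPM in the HDM201 males and 18.1 to 24.5 CPM in the young males, with overlap.

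MHC class II molecules display peptides from outside the cell to helper T cells, and their genes moved together. Of 12 members, 10 were tested and all 10 were called higher (median 1.94), with 9 or 10 called when any mouse was left out. All members together summed to 238 to 568 CPM in the HDM201 males and 70.2 to 161 CPM in the young males. H2-Ab1 (chr17:34257689-34269419) stood at 79.1, 34.6, 74.1, 58 and 58.8 CPM in the HDM201 males and at 9.39, 19.4, 9.88 and 18 CPM in the young males (2.11 ± 0.28 SE, adjusted p = 0.00162). H2-Aa was at 82.6, 35.4, 76.8, 54.8 and 54.7 CPM against 9.99, 20.9, 11.8 and 18.9 CPM (1.99 ± 0.28 SE, adjusted p = 0.00192). H2-Eb1, named after its values were seen, was at 30.9 to 82.5 against 8.18 to 21.8 CPM (2.11 ± 0.33 SE, adjusted p = 0.00275). HDM201 male 2 was the lowest of its group for all 3 and still lay above every young male. Ctss, the protease that frees the class II groove, rose (1.83 ± 0.25 SE, adjusted p = 0.00183).

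The promoters of 2 class II genes are shown because these genes rose in step. They are the 250 bases before the start of the gene, from RefSeq (GRCm38.p6), with the pentamer ATTGG of the Y box in capitals, read on both strands (CCAAT on the other).
H2-Aa, chr17:34287824-34288073, minus strand: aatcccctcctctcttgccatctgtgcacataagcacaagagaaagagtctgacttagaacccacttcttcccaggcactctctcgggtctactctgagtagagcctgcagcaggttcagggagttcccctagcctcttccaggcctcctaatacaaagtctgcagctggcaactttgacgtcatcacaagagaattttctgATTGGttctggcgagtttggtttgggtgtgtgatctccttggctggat
H2-Eb1, chr17:34305617-34305866, plus strand: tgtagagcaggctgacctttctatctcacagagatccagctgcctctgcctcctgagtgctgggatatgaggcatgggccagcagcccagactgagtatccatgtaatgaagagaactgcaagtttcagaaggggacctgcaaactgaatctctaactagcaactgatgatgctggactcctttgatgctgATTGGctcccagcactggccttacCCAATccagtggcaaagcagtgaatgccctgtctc
In H2-Aa the match began 48 bases before the gene start, and in H2-Eb1 matches began 59 and 35 bases before it. In windows that also held the 50 bases after the start, ATTGG was present in 8 of 9 class II genes with a RefSeq promoter (88.9%) and in 41.1% of all 27025 genes. The exact heptamer GCAACAG, a form of the X box, was in none of the 9 and in 6.24% of all genes. Other forms of the X box were not searched, so this does not show whether these promoters hold one. A match is a description of the letters only.

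Interferon-stimulated genes were called in 1 direction. Of 48 tested, 20 were called higher and none lower (median 0.58), and the count was 13 without young male 3 or without young male 4. All members summed to 1456 to 2027 CPM in the HDM201 males and 887 to 1202 CPM in the young males. Ifi27 (chr12:103434211-103440239), a mitochondrial protein induced by interferon, stood at 163, 144, 128, 159 and 135 CPM in the HDM201 males and at 58.2, 62.3, 56.8 and 64.7 CPM in the young males (1.28 ± 0.098 SE, adjusted p = 0.000147). Oasl2, of the oligoadenylate synthetase family that senses double-stranded RNA, was at 5.93 to 9.55 against 3.01 to 4.03 CPM (1.28 ± 0.17 SE, adjusted p = 0.00162). Ly6e, a surface protein induced by interferon, was at 464 to 873 against 154 to 276 CPM (1.56 ± 0.22 SE, adjusted p = 0.00208). The old vehicle males spread more widely, at 316, 138, 393 and 285 CPM for Ifi27 and 16.1, 5.85, 26.4 and 7.05 CPM for Oasl2 in males 2 to 5.

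Bst2, which tethers virus particles, and Oas1a, a double-stranded RNA sensor, are the called interferon-stimulated genes with the smallest p whose promoters hold GAAANNGAA, letters of the interferon-stimulated response element. Bst2 stood at 161, 168, 184, 174 and 172 CPM against 122, 111, 104 and 126 CPM (0.58 ± 0.089 SE, adjusted p = 0.00264), and Oas1a at 3.35, 3.9, 5.18, 5.31 and 5.58 CPM against 1.87, 3.13, 1.63 and 2.0 CPM (1.12 ± 0.24 SE, adjusted p = 0.00918). Their 250 bases before the gene start follow, from RefSeq (GRCm38.p6), with the overlapping matches in capitals.
Bst2, chr8:71537473-71537722, minus strand: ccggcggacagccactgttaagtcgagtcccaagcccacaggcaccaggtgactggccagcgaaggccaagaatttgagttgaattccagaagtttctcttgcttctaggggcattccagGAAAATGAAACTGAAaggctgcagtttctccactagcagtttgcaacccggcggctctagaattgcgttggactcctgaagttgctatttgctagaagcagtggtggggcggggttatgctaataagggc
Oas1a, chr5:120907526-120907775, minus strand: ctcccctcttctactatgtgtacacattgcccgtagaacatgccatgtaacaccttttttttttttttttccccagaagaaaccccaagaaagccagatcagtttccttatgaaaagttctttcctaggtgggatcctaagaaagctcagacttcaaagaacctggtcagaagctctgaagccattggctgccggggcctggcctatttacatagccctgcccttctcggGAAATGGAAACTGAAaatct
Both held 2 overlapping matches, which began 130 and 124 bases before the start in Bst2 and 20 and 14 bases before it in Oas1a. Over windows with 50 bases after the start and on both strands, GAAANNGAA was present in 9.76% of 27025 genes, in 23 of 36 interferon-stimulated genes with a promoter (63.9%) and in 8 of the 15 called ones (53.3%). The other called genes with a match were Ifi44 (1.03, adjusted p = 0.0132), Samd9l (0.74, adjusted p = 0.0157), Slfn5, Oas3, Cxcl10 and Oas1g.

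The guanylate-binding and immunity-related GTPases, which interferon-gamma induces, gave 5 called higher of 18 tested (median 1.08). Their sums overlapped, at 383 to 844 CPM in the HDM201 males and 361 to 486 CPM in the young males. The count was 3 without HDM201 male 1, 3 or 5 or young male 1, 11 without HDM201 male 4 or by DESeq2, and 1 by limma on log2(FPKM + 1). Gbp2 was at 7.64 to 21 against 1.2 to 4.09 CPM (1.86, adjusted p = 0.0072). Gbp8 (1.26, adjusted p = 0.0165) and Gbp9 (1.27, adjusted p = 0.0193) are close copies of each other, so their separate counts are uncertain. MHC class I presentation, which shows peptides from inside the cell to killer T cells, had 13 of 25 members called higher and 1 lower (median 0.51), with 8 higher without young male 4 and the lower call lost without HDM201 male 1, 3, 4 or 5 or young male 1. The class I list summed to 6571 to 8058 CPM in the HDM201 males and 6334 to 7582 CPM in the young males, with overlap. H2-Q4 was at 74.9 to 100.4 against 38.6 to 55.3 CPM (0.90, adjusted p = 0.00185) and H2-Q6 at 64.6 to 96.7 against 25.2 to 50.5 CPM (1.08, adjusted p = 0.00351). As class I genes are close paralogs, reads could be split between them. Psmb8, a subunit of the immunoproteasome, rose (0.90 ± 0.13 SE, adjusted p = 0.00248). Wdfy1, an adaptor of Toll-like receptor signaling named after its values were seen, fell, at 9.66 to 12.6 CPM against 26.3 to 30.4 CPM (-1.41 ± 0.097 SE, adjusted p = 0.000147).

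Of 55 inflammatory response genes, 44 were tested, 30 were called higher and none lower (median 1.33). All 55 summed to 377 to 595 CPM in the HDM201 males and 233 to 319 CPM in the young males. Cxcl16 (chr11:70453983-70459984), a membrane-bound chemokine, stood at 11.3, 8.33, 13, 13.4 and 14.9 CPM in the HDM201 males and at 3.85, 5.4, 4.34 and 3.95 CPM in the young males (1.48 ± 0.18 SE, adjusted p = 0.00103). Ccr2, the receptor that draws monocytes into tissue, was at 4.41, 2.3, 2.88, 5.42 and 5.41 CPM against 0.421, 0.795, 0.869 and 0.59 CPM (2.61 ± 0.34 SE, adjusted p = 0.00148). Relb, a subunit of NF-kB, was at 2.88 to 5.63 against 0.662 to 1.53 CPM (2.07 ± 0.28 SE, adjusted p = 0.00162). Tnf, which encodes the cytokine TNF, held 76 counts in the HDM201 males together and 1 in the young males, a ratio of 68.6 after scaling to library size (95% Clopper-Pearson interval 11.9 to 2743, counting error only). By mouse, Tnf stood at 0.782, 0.427, 0.978, 0.644 and 1.38 CPM and 0.0602, 0, 0 and 0 CPM. Ccl2, the ligand of Ccr2 and named after its values were seen, rose (2.31 ± 0.47 SE, adjusted p = 0.00799). Ifng (0.112 ± 0.107 CPM against 0.0249 ± 0.0290 CPM, mean and SD over mice) and Il6 were too rare to be tested.

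SASP factors overlapped with these lists, and 21 of 36 tested were called higher and none lower (median 1.02), with 1 lower without young male 3 or 4. Their summed level over all members overlapped between the groups, at 2957 to 3708 CPM in the HDM201 males and 2819 to 3732 CPM in the young males. Igfbp7 (chr5:77349240-77408041), a secreted binder of insulin-like growth factors, stood at 122, 104, 96.5, 119.8 and 80.7 CPM in the HDM201 males and at 47.1, 50.1, 41.8 and 50.9 CPM in the young males without overlap (1.15 ± 0.13 SE, adjusted p = 0.000724). Tgfb1, the cytokine TGF-beta 1, was at 13.6, 11.7, 13.5, 13.7 and 18.5 CPM against 5.72, 5.8, 7.33 and 7.44 CPM (1.12 ± 0.15 SE, adjusted p = 0.00171), and HDM201 male 5 was the highest. The old vehicle males stood at 75.1, 84.5, 87.6 and 68.5 CPM for Igfbp7 and 13.4, 9.8, 14.8 and 9.81 CPM for Tgfb1.

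**Figure D2:**
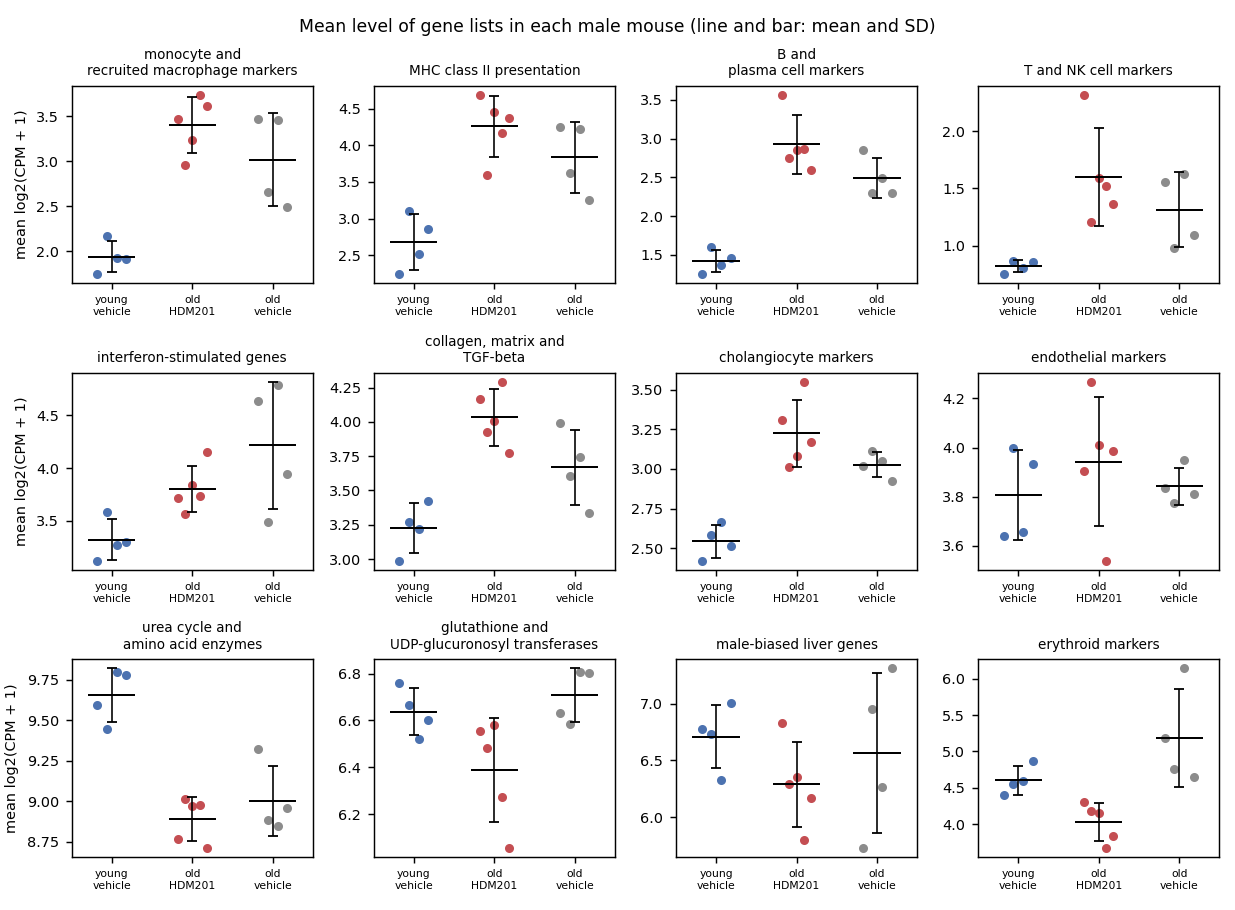
Mean log2(CPM + 1) over the tested members of 12 gene lists in each young vehicle, old HDM201 and old vehicle male, with each group's mean and SD as line and bar. The vertical axes do not start at 0. For monocyte, MHC class II, B cell and matrix genes every HDM201 male lies above every young male, and for urea cycle and amino acid enzymes every HDM201 male lies below.

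Many matrix genes rose. Of 43 collagen, matrix and TGF-beta genes, 40 were tested, 25 were called higher and none lower (median 0.99), with 24 to 27 when a mouse was left out. The summed level of all members overlapped, at 3456 to 4091 CPM in the HDM201 males and 3083 to 3962 CPM in the young males. Tgfbi (chr13:56609523-56639562), a matrix protein induced by TGF-beta, stood at 45, 45.7, 48.2, 61.9 and 43 CPM in the HDM201 males and at 24.6, 27.2, 26.6 and 24.4 CPM in the young males (0.93 ± 0.11 SE, adjusted p = 0.00098). Col6a1, a chain of collagen VI, was at 11 to 22.2 against 6.62 to 7.06 CPM (1.37 ± 0.19 SE, adjusted p = 0.00166). Col1a1, the main fibrillar collagen chain and named after its values were seen, was at 44.1, 26.8, 29, 39.9 and 19.5 CPM against 4.27, 7.05, 9.12 and 15.4 CPM (1.82 ± 0.34 SE, adjusted p = 0.00524). Markers of stellate cells and fibroblasts, the matrix-producing cells, gave 13 called higher of 18 tested and none lower (median 0.99). They summed to 375 to 602 CPM in the HDM201 males and 290 to 385 CPM in the young males, with overlap. The first 3 by p were the stellate cell filament gene Des (1.11, adjusted p = 0.00171), the growth factor receptor Pdgfra (1.06, adjusted p = 0.0028) and the proteoglycan decorin, Dcn (0.90, adjusted p = 0.00284).

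Cholangiocyte markers, those of bile duct cells, had 8 of 12 tested members called higher and 1 lower (median 1.36). They summed to 217 to 334 CPM in the HDM201 males and 163 to 193 CPM in the young males. Sox9, a transcription factor of duct and progenitor cells, stood at 12.7, 17, 12.3, 10.8 and 13.4 CPM in the HDM201 males and at 4.33, 5.45, 6.19 and 4.9 CPM in the young males (1.35 ± 0.15 SE, adjusted p = 0.000755). Muc1, a mucin, rose, at 1.12 to 2.52 CPM against 0.602 to 0.739 CPM (1.53, adjusted p = 0.00651). Krt19, a duct keratin named after its values were seen, rose as well (1.57, adjusted p = 0.0471) but was not called without HDM201 male 1, 3, 4 or 5 or without young male 1, 2 or 4 (adjusted p up to 0.106). Onecut2, a transcription factor shared with hepatocytes, was the member that fell (-0.64, adjusted p = 0.00647). In contrast, none of 22 endothelial markers passed the test in either direction (median 0.19), with Eng, the co-receptor endoglin, the highest in CPM, at 69.2 to 93.2 and 59.8 to 74.6 CPM (0.29, adjusted p = 0.0983). Without HDM201 male 4, 5 endothelial markers were called higher, and 1 without HDM201 male 1 or 5 or young male 2.

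Genes of proliferation showed 8 called higher of 27 tested (median 1.08), with summed levels of 104 to 338 CPM in the HDM201 males and 86.7 to 98.4 CPM in the young males. The count was 5 without HDM201 male 4, HDM201 male 5 or any of the 4 young males, 12 by DESeq2 and 1 by limma on log2(FPKM + 1), where the median was 0.35. Ccnd1, which encodes cyclin D1, was at 22.6, 20.7, 39.9, 78.9 and 18.8 CPM against 4.45, 6.82, 3.8 and 10.0 CPM (2.52 ± 0.48 SE, adjusted p = 0.00549). Mki67, a mark of cycling cells, was at 1.34 to 6.71 against 0.217 to 0.682 CPM (2.69, adjusted p = 0.00899), with HDM201 male 4 the highest, and Bub1b, of the spindle checkpoint, at 0.67 to 1.61 against 0.217 to 0.361 CPM (1.95, adjusted p = 0.00628). Immediate early genes, which answer growth and stress signals within minutes, gave 14 called higher and 1 lower of 21 tested (median 0.87), and the lower count was 0 without young male 4 and 2 without young male 3. The AP-1 subunit Jund (0.80 ± 0.12 SE, adjusted p = 0.00213), its partner Fos (1.97 ± 0.31 SE, adjusted p = 0.003) and Ier5 (0.94 ± 0.17 SE, adjusted p = 0.00526) rose.

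Urea cycle and amino acid enzymes held the largest share of called falls among the 49 lists. All 30 were tested, 20 were called lower, none higher, and every log2 fold change was negative (median -0.63). Their summed level was 20156 to 27246 CPM in the HDM201 males, 36886 to 45601 CPM in the young males and 23829.7 to 34448 CPM in the old vehicle males, and 15 to 21 were called lower when a mouse was left out. Aass (chr6:23072173-23132986), which starts lysine breakdown, stood at 204, 218, 201, 207 and 212 CPM in the HDM201 males and at 449, 384, 495 and 557 CPM in the young males (-1.17 ± 0.11 SE, adjusted p = 0.000343). Tdo2, which starts tryptophan breakdown, was at 838, 912, 829, 715 and 708 CPM against 2014, 1644, 2173 and 2436 CPM (-1.36 ± 0.14 SE, adjusted p = 0.000539). Oat, ornithine aminotransferase, was at 333, 291, 334, 220.1 and 296 CPM against 689, 694, 996 and 868 CPM (-1.45 ± 0.16 SE, adjusted p = 0.000612). All 3 separated the groups. Got1, aspartate aminotransferase, was among the 10 largest falls of called protein-coding genes without overlap, at 96.2, 189, 163, 264 and 100.4 CPM against 879, 385, 822 and 857 CPM (-2.18 ± 0.33 SE, adjusted p = 0.00248), and Cps1, which makes carbamoyl phosphate for the urea cycle, fell (-0.67 ± 0.14 SE, adjusted p = 0.00917).

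Cps1 was also the only hepatocyte marker of 12 to be called (list median -0.22), with 2 called lower without young male 1, and Alb was not called (0.30, adjusted p = 0.424). Among glutathione and UDP-glucuronosyl transferases, the conjugating enzymes of detoxification, 11 of 35 were called lower and none higher (median -0.35), and 7 without HDM201 male 5, young male 1 or young male 2. Gstp1, abundant in male liver, was at 981, 564, 801, 598 and 817 CPM against 1658, 1266, 1288 and 1966 CPM (-1.03 ± 0.19 SE, adjusted p = 0.00557), while Gstk1 (-0.54, adjusted p = 0.00496) and Ugt2b34 (-0.57, adjusted p = 0.00652) fell as well. Without HDM201 male 5, 3 transferases were called higher, and 1 without HDM201 male 1 or 2 or young male 4. Of 30 drug-metabolizing P450 genes, 5 were called lower (16.7%, against 7.56% over all genes) and none higher (median -0.26). The lower count was 3 without HDM201 male 3, HDM201 male 5 or young male 1, while 1 was higher without young male 4. Por, the reductase that feeds electrons to every microsomal P450, was at 251, 321, 261, 491 and 281 CPM against 1217, 443, 664 and 906 CPM (-1.33 ± 0.28 SE, adjusted p = 0.00954). Cyp2a5 fell, at 111 to 265 CPM against 349 to 1073 CPM (-1.54, adjusted p = 0.0119). Cyp2b10 fell too (-1.26, adjusted p = 0.0193) but was not called without young male 1 (adjusted p = 0.0536).

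Of 28 genes of bile acid synthesis and transport, 4 were called lower (14.3%, against 7.56% over all genes) and none higher (median -0.30). The lower count was 2 without HDM201 male 1 or 5 and 1 without young male 1. Cyp39a1, an oxysterol hydroxylase, was at 29.8, 34.6, 32.6, 31.7 and 23.5 CPM against 70.6, 54.8, 48.7 and 57.9 CPM (-0.92 ± 0.13 SE, adjusted p = 0.00193) and was called when any mouse was left out. Akr1d1, a steroid reductase (-0.48, adjusted p = 0.0228), was not called without HDM201 male 3 or without young male 1 or 3 (adjusted p up to 0.0538), and Cyp27a1, of the acidic pathway (-0.43, adjusted p = 0.0426), was not called without HDM201 male 1, 2, 3, 4 or 5 or without young male 1, 2 or 4 (adjusted p up to 0.0978). Subunits of the respiratory chain encoded in the nucleus changed little, with 9 of 74 called lower (12.2%, against 7.56% over all genes), none higher, and a median of -0.20. That count was between 3 and 5 without HDM201 male 1, 3 or 5 or young male 1, 3 or 4, and 2 were called higher without young male 1. Ndufs1 of complex I stood at 90.2, 97.8, 90.6, 82.1 and 77.2 CPM against 128, 120.1, 123 and 125 CPM (-0.50 ± 0.085 SE, adjusted p = 0.00396), and Ndufa10 (-0.35, adjusted p = 0.0159) and the ATP synthase subunit Atp5l (-0.46, adjusted p = 0.00497) fell as well.

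Of 23 circadian clock genes, 5 were called lower and 2 higher (median -0.25), together 30.4%, against 19.2% over all genes. There was no lower call without young male 1, between 2 and 3 lower calls without HDM201 male 1, 2 or 5 or young male 4, and 8 lower without HDM201 male 4. The higher count was 1 without HDM201 male 1 or young male 1, 3 or 4. Ciart, a repressor of the clock, was at 1.56, 1.6, 4.6, 11.8 and 3.75 CPM against 39.9, 11.3, 9.18 and 39.8 CPM (-2.42, adjusted p = 0.0201) and was not called without young male 1 or 4 (adjusted p up to 0.0586). Bhlhe41, another repressor (-2.16, adjusted p = 0.0187), was not called without young male 1 (adjusted p = 0.0519), and Csnk1e, a kinase of the period proteins, rose (0.65 ± 0.15 SE, adjusted p = 0.0128). Young males 1 and 4 were the highest for Ciart and young males 2 and 3 the lowest, a split within the young group that also showed in Onecut1 and Cish.

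Sex-biased genes, which follow the pulses of growth hormone through STAT5, moved in both directions. Male-biased liver genes gave 11 called lower and 2 higher of 33 tested (median -0.45), with 5 lower without young male 4 and 7 lower without HDM201 male 3 or young male 1 or 2, and 1 higher without any single mouse except HDM201 male 4 or young male 1. Serpina3k, a serpin of plasma, was at 6762, 4563, 4919, 3338 and 4889 CPM against 9575, 8384, 10926 and 12858 CPM (-1.09 ± 0.21 SE, adjusted p = 0.00615). Cyp4a12b, a male-specific fatty acid hydroxylase, was at 24.2, 11.4, 18.6, 6.6 and 16.1 CPM against 36.9, 50.1, 66.3 and 89.1 CPM (-1.97 ± 0.34 SE, adjusted p = 0.00379). Female-biased genes split evenly, with 7 called in each direction of 30 tested. Ntrk2, the receptor TrkB, rose to 20.8, 15.8, 15.1, 48.5 and 14 CPM from 0.241, 0.227, 3.96 and 1.18 CPM (4.01 ± 0.68 SE, adjusted p = 0.00371), and Acsm2 fell to 0.161 to 0.223 from 0.602 to 0.909 CPM (-1.85, adjusted p = 0.003). Without young male 2 the number of female-biased genes called higher was 4.

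Of 19 genes of the growth hormone and STAT5 axis, 3 were called higher and 3 lower. Onecut1, the liver factor HNF6, stood at 6.2, 3.15, 3.8, 6.49 and 4.91 CPM against 35.6, 9.94, 10.1 and 37.6 CPM (-2.24 ± 0.43 SE, adjusted p = 0.00576). Cish, a feedback inhibitor that STAT5 induces, was at 7.54, 9.67, 9.78, 12 and 8.06 CPM in the HDM201 males, 70.2, 16.9, 18.3 and 45.9 CPM in the young males and 47.4, 32.5, 27.1 and 24.1 CPM in old vehicle males 2 to 5. It fell against the young males (-2.0 ± 0.38 SE, adjusted p = 0.00583), and it was also the single gene called between HDM201 and old vehicle males, at -1.79 (adjusted p = 0.035, 1 of 14109 genes or 0.00709%, with 1710 genes at an unadjusted p under 0.05 in that fit). Bcl6, a repressor that opposes STAT5, was at 83.4, 56.1, 66, 21.6 and 63.2 CPM against 9.39, 14.7, 26 and 9.3 CPM (1.98 ± 0.39 SE, adjusted p = 0.00701), with HDM201 male 4 below the highest young male. Without HDM201 male 2 or young male 2, 5 genes of the axis were called lower. Among the major urinary proteins, male pheromone carriers that are near-identical copies and so uncertain as single genes, 2 of 15 were called lower and 1 higher (median -1.14), and 6 were lower without HDM201 male 1 and 1 lower without HDM201 male 3 or 5 or young male 1, 2 or 4. Mup20 rose to 4419.6, 3327, 2964, 3903 and 3031 CPM from 1600.2, 1727, 1935 and 2471 CPM (0.88 ± 0.18 SE, adjusted p = 0.00747), and Mup21 fell (-0.93, adjusted p = 0.00896). Mup3 fell (-1.14, adjusted p = 0.0457) and was not called without HDM201 male 1, 3 or 5 or without young male 1, 2, 3 or 4 (adjusted p up to 0.109).

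**Figure D3:**
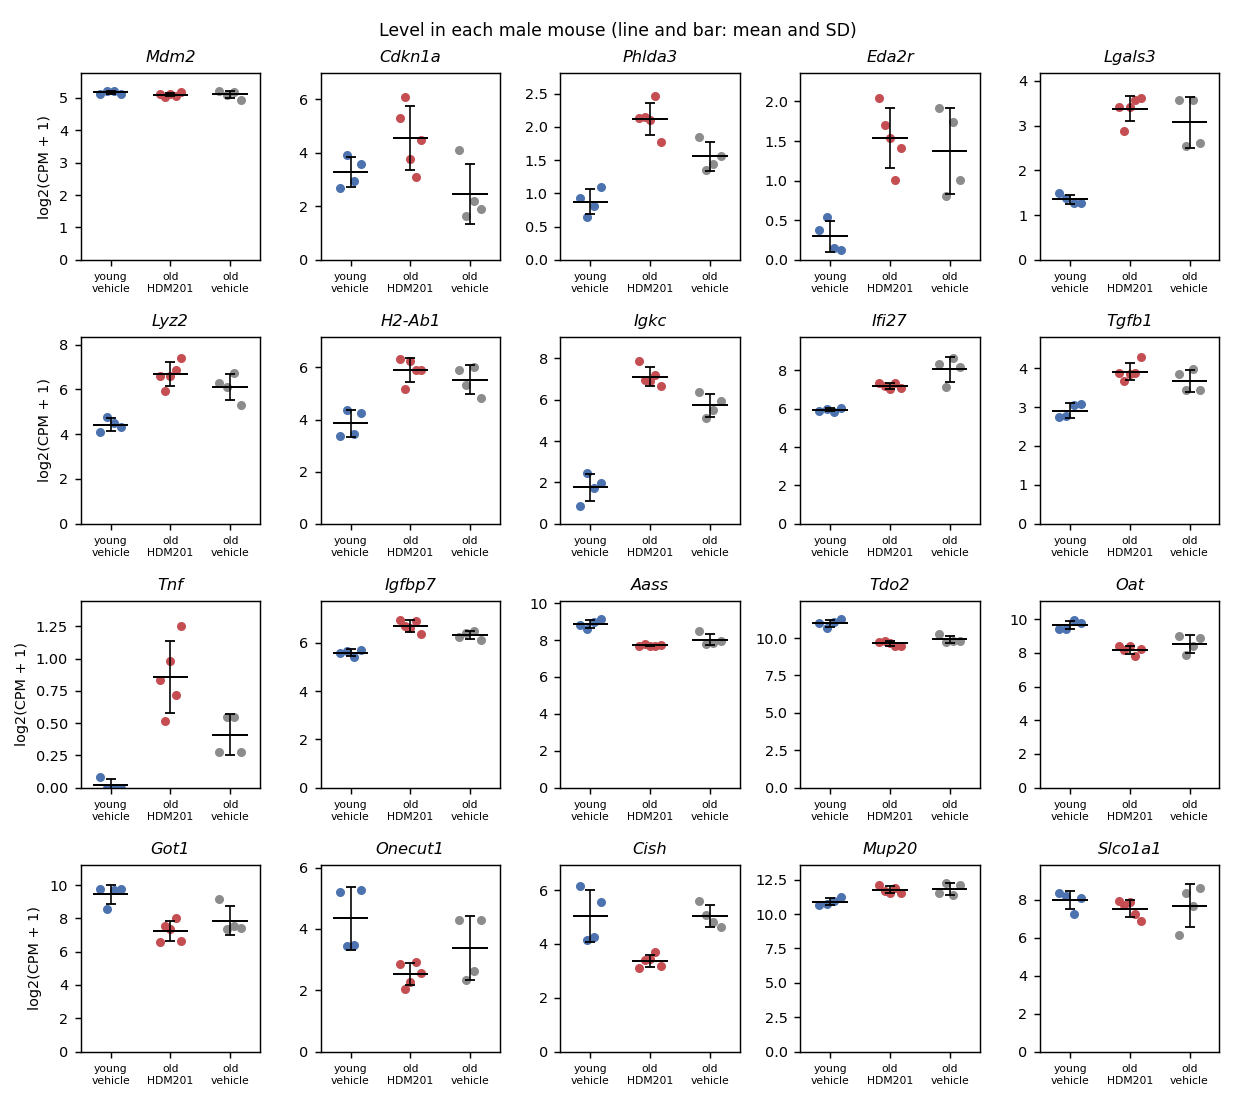
Level of 20 named genes in each young vehicle (blue), old HDM201 (red) and old vehicle (gray) male on a log2(CPM + 1) axis that starts at 0, with each group's mean and SD as line and bar. Mdm2 and Cdkn1a overlap between the groups, immune genes such as Lgals3 and Igkc lie higher in every HDM201 male than in any young male, and Aass, Tdo2, Oat and Got1 lie lower.

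Only 1 of 25 sterol synthesis genes was called, Ebp, an isomerase of cholesterol synthesis, lower (-0.45, adjusted p = 0.0342), and it was not called without HDM201 male 1, 2, 3 or 5 or without young male 1 or 3 (adjusted p up to 0.103). In this list 2 were lower without HDM201 male 4 and 1 higher without HDM201 male 5. Of 20 SREBP1 lipogenic enzymes, 1 was called, Pnpla3, a lipid droplet hydrolase, which rose to 23.9, 23.4, 33.1, 20.3 and 6.13 CPM from 5.36, 5.91, 4.24 and 1.81 CPM (2.32 ± 0.45 SE, adjusted p = 0.0059), and 1 was lower without young male 3. Fatty acid oxidation under PPARA gave 2 lower and 1 higher of 35 tested (median -0.26), with 4 lower without young male 2 and 2 higher without young male 1. Cpt2, which carries fatty acids into the mitochondrial matrix, was at 112, 99.1, 88.5, 77.5 and 103 CPM against 153, 138, 153 and 135 CPM (-0.59 ± 0.11 SE, adjusted p = 0.00556), Hadhb, of beta-oxidation, fell (-0.38, adjusted p = 0.0179), and Pdk4, which turns off pyruvate oxidation, rose, at 6.4 to 26.1 CPM against 2.29 to 6.25 CPM (1.94 ± 0.39 SE, adjusted p = 0.00736).

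Lipid droplet genes divided into 5 called higher and 5 lower of 20 tested. Cd36, the fatty acid transporter, rose, at 34 to 53.1 CPM against 17.4 to 28 CPM (0.88 ± 0.15 SE, adjusted p = 0.00426), and Plin5, which ties droplets to mitochondria, fell, at 32.6 to 41.5 CPM against 57 to 120.3 CPM (-1.19 ± 0.19 SE, adjusted p = 0.003). The higher count was 2 without HDM201 male 1 or young male 2 or 3 and 3 without young male 4, and the lower count 3 without HDM201 male 5 or young male 1 or 4. Cidea, a droplet protein of fat, held 205 counts in the HDM201 males and 0 in the young males, at least 61.7-fold higher against a floor of 3 counts over the group. By mouse it stood at 5.25, 2.88, 1.15, 0.483 and 1.55 CPM, and old vehicle males 2 to 5 stood at 0, 0.058, 0.0574 and 3.71 CPM. Of 6 adipose markers tested, 3 were called higher and 1 lower, with none higher without HDM201 male 1 and 1 higher without HDM201 male 2, 3 or 5 or young male 2, 3 or 4. Among them were Cidec, a paralog of Cidea, not called without HDM201 male 1 or without young male 2, 3 or 4 (adjusted p up to 0.0713), and Lipe, the hormone-sensitive lipase, which was lower (-0.51, adjusted p = 0.0104). Lipoprotein genes gave 2 calls in each direction of 29, among them Apobec1, the editor of Apob RNA, higher (0.90 ± 0.16 SE, adjusted p = 0.00439). The higher count was 1 without HDM201 male 1 or 4 or young male 2, 3 or 4, and the lower count was 1 without HDM201 male 1, 2 or 3 and 0 without HDM201 male 5 or young male 1. Glucose and insulin genes gave 5 lower and 1 higher of 29, with 3 lower without HDM201 male 3 or young male 1, 2 lower without young male 3, and 2 higher without HDM201 male 5 or young male 1 or 3. Foxo1, a factor of gluconeogenesis, fell (-0.52, adjusted p = 0.00857), and so did Pdk2 (-0.55, adjusted p = 0.011), which limits pyruvate oxidation.

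Of 26 ATF4 targets, 4 were called higher and 2 lower, with Pck2, a mitochondrial enzyme of gluconeogenesis, at 8.29 to 13.1 against 3.31 to 5.26 CPM (1.30 ± 0.18 SE, adjusted p = 0.00176), Aldh18a1, of proline synthesis, higher (1.74, adjusted p = 0.00647), and Cth, of cysteine synthesis, lower (-0.98, adjusted p = 0.00647). Of 29 chaperones of the endoplasmic reticulum, 1 was called in each direction, and both calls were lost without some mice. Manf (1.04, adjusted p = 0.0435) was not called without HDM201 male 1, 4 or 5 or without young male 1, 2 or 4 (adjusted p up to 0.111), and Atf6 (-0.31, adjusted p = 0.0461) was not called without HDM201 male 1, 2, 3, 4 or 5 or without young male 2, 3 or 4 (adjusted p up to 0.118). Hmox1, which degrades heme, rose, at 15.4 to 31.1 CPM against 9.75 to 11.6 CPM (1.02 ± 0.19 SE, adjusted p = 0.00526), 1 of 4 genes called higher among 15 NRF2 targets and metallothioneins, of which 1 was lower. The NRF2 count was 2 higher without young male 3 or 4, and the lower count ran from 0 to 2. Fkbp5, a glucocorticoid-induced co-chaperone, fell to 34.6, 76.5, 31.6, 37.7 and 47.6 CPM from 278, 99.6, 122 and 210.0 CPM (-1.96 ± 0.33 SE, adjusted p = 0.00367), and Hspd1, the mitochondrial chaperonin, fell too (-0.47, adjusted p = 0.0052). The cytosolic chaperone list had 2 higher and 3 lower of 20. Both higher calls were lost without HDM201 male 1, 4 or 5 or young male 1, 2 or 3, and 1 remained without HDM201 male 3. Of 79 cytosolic ribosomal protein genes, 75 had a positive log2 fold change (median 0.14), but 1, Rps19, was called (0.51, adjusted p = 0.0129), and 9 without young male 1. By limma on log2(FPKM + 1), 28 ribosomal protein genes were called higher and none lower (median 0.28). Acute phase genes, which hepatocytes make in inflammation, gave 2 called higher of 24 and a median of -0.26. There 4 were called lower without HDM201 male 5 and 1 without HDM201 male 2, and 1 was higher without HDM201 male 4 or any young male. Coagulation and complement genes gave 1 in each direction of 40, with 3 lower without young male 1, F9 lower (-0.48, adjusted p = 0.00968) and Cfb higher (0.41, adjusted p = 0.0256), the latter not called without young male 1, 2 or 4 (adjusted p up to 0.0641).

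Genes of the pericentral zone around the central vein and of Wnt signaling gave 2 called higher and 3 lower of 22. Together these are 22.7%, near the 19.2% over all genes. The higher ones were Ccnd1 and Tcf7, a Wnt factor of T cells as well, and the lower ones Oat, Cyp27a1 and Slc1a2, a glutamate transporter. Of 12 pancreas markers, 2 were tested and neither was called.

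Erythroid transcripts were lower in the HDM201 males. Of 7 tested members, 4 were called lower and none higher (0 in either direction by limma on log2(FPKM + 1)), and the list summed to 124 to 235 CPM in the HDM201 males, 260.2 to 360.0 CPM in the young males and 305 to 1182 CPM in the old vehicle males. Hbb-bs, a beta globin gene, was at 53.9, 38.8, 48, 19.5 and 31.6 CPM against 54.5, 85.1, 87.9 and 104 CPM (-1.10 ± 0.26 SE, adjusted p = 0.0151). The count was 1 without young male 4 and 2 without HDM201 male 5, since Hba-a2 was not called without young male 4 (adjusted p = 0.0649) and Alas2 was not called without HDM201 male 3 or 5 or without young male 1 or 4 (adjusted p up to 0.0711). Globin genes are close copies, and the part of blood in the immune results was not tested.

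Among protein-coding genes without overlap, the largest rises included Gm15446, a zinc finger gene, at 4.97, 3.85, 4.55, 3.27 and 4.97 CPM against 0.12, 0.114, 0 and 0 CPM (6.16 ± 0.49 SE, adjusted p = 0.000152), with old vehicle males at 2.49 to 3.73 CPM. Ifi208, of the interferon-inducible p200 family, held 92 counts against 1, a ratio of 83.0 (14.5 to 3314), and Lrmda 95 against 2, a ratio of 42.9 (11.5 to 359). Cyp2b13, a female-biased P450, held 315 counts in the HDM201 males and 0 in the young males, at least 94.7-fold higher, and stood at 2.51, 6.89, 4.72, 0.161 and 3.09 CPM by mouse. Acod1, which makes itaconate in activated macrophages (0.374 to 5.36 against 0 to 0.136 CPM), Scube1 (0.828 to 3.7 against 0.0454 to 0.17 CPM) and Olfr1030 (0.801 to 2.2 against 0 to 0.163 CPM) also rose, and Gldn did so mainly in HDM201 male 4 (1.01, 0.961, 0.806, 12.3 and 0.552 CPM) and was not called without young male 1, 2 or 3 (adjusted p up to 0.0692). The largest falls included E030018B13Rik (0 to 0.503 against 2.05 to 4.29 CPM) and Etnppl, a phospholyase of phosphoethanolamine, at 43.6, 58.3, 61, 56.1 and 41.4 CPM against 183, 147, 438 and 378 CPM (-2.45 ± 0.30 SE, adjusted p = 0.000987). Upp2, a uridine phosphorylase, was at 62.3, 136, 200.2, 329.9 and 114 CPM against 1011, 458, 703 and 962 CPM (-2.21 ± 0.41 SE, adjusted p = 0.00533). The choline phosphodiesterase Gpcpd1 (-2.32, adjusted p = 0.00345), the lectin Clec2h (-2.14, adjusted p = 0.0079) and the dicarboxylate transporter Slc13a2 (-1.96, adjusted p = 0.0154) fell as well.

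In females, the same contrast called 3756 of 13995 genes (26.8%). Of the 2690 genes called in males, 2559 were tested in females, 2251 of them (88.0%) with the same direction, 1195 called in that direction and 30 called in the opposite one. Across those 2559 genes, chosen for their call in males, the fold changes of the sexes had a Pearson r of 0.765. Over all 13645 genes tested in both sexes r was 0.585. Both are descriptions over genes that share libraries within each sex. The female mice were 20 months old and the male mice 24 months old, so sex and old age cannot be told apart in what follows. In a fit over both sexes, the difference between males and females was called for 523 of 14965 genes (3.49%), 305 with the male change above the female one (58.3%) and 218 below, and 292 of the 523 were also called in males. With upper-quartile factors 387 of 526 (73.6%) had the male change above. The 523 became 305 without young male 3, 348 without HDM201 female 2 and 318 without HDM201 female 4.

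Several immune lists changed more in males than in females, where 3.49% of all genes were called in the sex difference. MHC class II genes differed between the sexes for 7 of 11 tested, in all 7 with the male change above, and H2-Ab1 changed by 2.11 in males and 0.23 in females (difference 1.87, adjusted p = 0.00385). Interferon-stimulated genes differed for 11 of 48 tested, all with the male change above, and their median change was 0.58 in males and -0.13 in females, where 5 were called higher and 6 lower. Ifi27 changed by 1.28 and 0.36 (difference 0.92, adjusted p = 0.00135) and Oasl2 by 1.28 and -0.28 (difference 1.55, adjusted p = 0.00383). MHC class I genes differed for 9 of 25 tested and monocyte markers for 8 of 22, all with the male change above, Lgals3 among them at 2.63 and 0.88 (difference 1.75, adjusted p = 0.00197). Igkc rose in both sexes, by 5.77 and 3.25, and more so in males (difference 2.51, adjusted p = 0.032). Only 2 of 25 B and plasma cell markers differed, and none of 10 dendritic cell and 5 neutrophil markers did.

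Metabolic lists differed in other ways. Urea cycle and amino acid enzymes fell in females too, with 25 called lower and 1 higher and a median of -0.78, and Tdo2 changed by -1.36 in males and -1.82 in females (difference 0.45, adjusted p = 0.193). Fatty acid oxidation genes, with 15 called higher in females and none lower, differed for 7 of 35 tested, in all 7 with the male change below, such as Cpt2 at -0.59 and 0.17 (difference -0.76, adjusted p = 0.00337). Cd36 rose more in females, at 0.88 and 2.27 (adjusted p of the difference = 0.00135). Respiratory chain subunits were lower in females for 64 genes, against 9 in males, and the difference was called for 5 of 74, all with the male change above. Among the 30 urea cycle and amino acid enzymes it was called for none. The genes of smallest p in each direction follow, several of them sex-biased. Gm3839 changed by 0.52 in males and -3.63 in females (adjusted p of the difference = 3.78e-06), Mup20 by 0.88 and -1.54 (4.14e-05), the organic anion transporter Slco1a1 by -0.45 and -4.41 (5.95e-05), Hsd3b3 by -0.18 and -1.25 (0.00135) and Cnp by 1.45 and -0.28 (0.00135). Adcy1, an adenylate cyclase, changed by 0.23 in males and 6.02 in females (0.00135), Lratd2 by -0.70 and 1.11 (0.00135), Smurf2, a ubiquitin ligase of TGF-beta signaling, by -0.30 and 0.36 (0.00135), and Erc1 by -0.45 and 0.30 (0.00135).

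**Figure D4:**
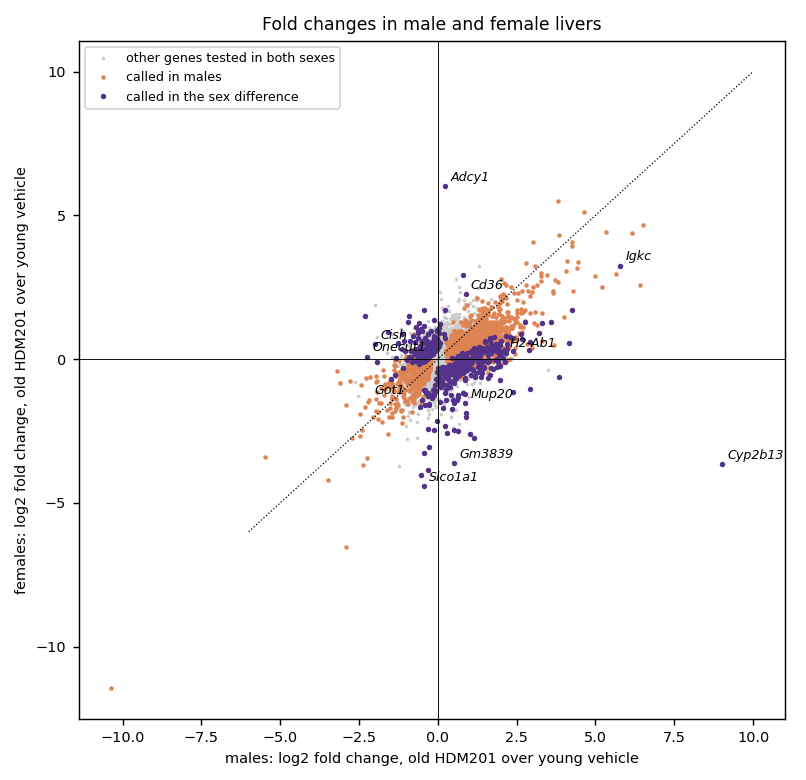
Log2 fold change of old HDM201 over young vehicle in males (horizontal) and females (vertical) for the 13645 genes tested in both sexes, with genes called in males in orange and genes called in the test of the sex difference in purple. Most orange points lie in the lower left and upper right, and purple points below the diagonal include immune genes such as H2-Ab1.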

How the data were processed

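Livers of 29 mice were sequenced as poly(A) RNA, and 27 have columns in the deposited count table. Per the labels and the study's methods, STAR was the authors' aligner, with mm10 as the genome, and HTSeq their counter, which gave the deposited raw counts, and Cufflinks gave the FPKM values they deposited. Versions, annotation and strand setting are not given in the sources used here, so overlapping genes on opposite strands cannot be told apart. Names and coordinates come from GENCODE vM21 on GRCm38 (55240 of 55421 genes matched), and promoter sequences from RefSeq.

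Counts were compared with edgeR 4.0.16 in R 4.3.3 (TMM factors, filterByExpr with a minimum count of 10 and total of 15, quasi-likelihood test, Benjamini-Hochberg adjusted p under 0.05). Only the 9 mice entered the male fit, a fit of HDM201 against old vehicle males gave the value for Cish, and a sex by group term over 19 mice gave the sex difference. Printed CPM use TMM factors over all 27 libraries, except the sums over immunoglobulin gene segments, which were scaled to total counts alone. DESeq2 1.42.0 and limma 3.58.1 were alternatives, the latter on log2(FPKM + 1) and log2(FPKM + 0.1), since FPKM are not counts. Separate mice are the replicates. Intervals and floors of low counts cover counting error only.

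Genes were named by rule: the drug target, its pathway and label checks, the 10 largest rises and falls among called protein-coding genes without overlap and with a mean CPM of at least 1 in the higher group, up to 3 called members of each list by p (or, with none called, the member of highest CPM), and 5 genes per direction of the sex difference. Members and lists were chosen with earlier results of these data known. Counts of old vehicle male 1 and young vehicle male 5 were not analysed here.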

Additional observations from a re-analysis of the deposited data

Results flagged for a closer look

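A mouse lay far from the others of its group, by the 95% critical value of Dixon's gap ratio, in 27 of 426 groups of 4 or 5 mice checked (6.34%). That critical value gives about 5% for independent, normally distributed values. The groups here share mice and genes, so 6.34% cannot be judged against it. HDM201 male 1 stood at 51.5 CPM for Jchain (others 18.5 to 24.5), 3.07 CPM for Cd3e (others 0.994 to 1.5) and 14 CPM for Ccl5 (others 2.78 to 5.3). The same mouse stood at 77.1 CPM for Ighg2c (others 3.7 to 23.7) and 3.57 on the log2(CPM + 1) scale for the mean of B and plasma cell markers (others 2.59 to 2.87). HDM201 male 2 stood at 2.88 CPM for Relb (others 5.02 to 5.63), 3.15 CPM for Slc13a2 (others 0.497 to 1.04) and 5.71 on the log2(CPM + 1) scale for the mean of growth hormone and STAT5 axis (others 5.42 to 5.50). HDM201 male 4 stood at 12.3 CPM for Gldn (others 0.552 to 1.01), 6.28 CPM for Krt19 (others 1.76 to 2.9) and 61.9 CPM for Tgfbi (others 43 to 48.2). The same mouse stood at 48.5 CPM for Ntrk2 (others 14 to 20.8) and 3.03 on the log2(CPM + 1) scale for the mean of cell cycle and mitosis (others 1.73 to 2.02). HDM201 male 5 stood at 86.6 CPM for C1qb (others 34.9 to 45.8), 77.7 CPM for C1qc (others 33.2 to 41.7) and 18.5 CPM for Tgfb1 (others 11.7 to 13.7). Young male 1 stood at 1.2 CPM for Gbp2 (others 3.69 to 4.09), 5.54 CPM for Cidec (others 3.18 to 3.53) and 0.0602 CPM for Tnf (others 0). The same mouse stood at 3.15 on the log2(CPM + 1) scale for the mean of SASP factors (others 3.37 to 3.39). Young male 2 stood at 14 CPM for Laptm5 (others 8.08 to 9.02), 28.7 CPM for C1qb (others 12.5 to 14.9) and 4.03 CPM for Oasl2 (others 3.01 to 3.15). The same mouse stood at 385 CPM for Got1 (others 822 to 879), 5.31 on the log2(CPM + 1) scale for the mean of growth hormone and STAT5 axis (others 5.68 to 5.73) and 4.32 on the log2(CPM + 1) scale for the mean of Kupffer cell markers (others 3.49 to 3.59). Young male 3 stood at 0.0543 CPM for Ifi208 (others 0). Both this value and that of Tnf rest on 1 count, for which the gap ratio takes its highest value by construction, so they mark no unusual mouse. HDM201 male 1 was the high mouse for immunoglobulin and T cell genes, HDM201 male 4 for the cell cycle list, Ntrk2, Krt19 and Gldn, and HDM201 male 5 for C1qb, C1qc and Tgfb1.

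The change from young vehicle to old HDM201 differed between the sexes, by edgeR's quasi-likelihood test of the difference, for 523 of 14965 genes (3.49%). It did so for 47 of the 168 genes named here. Many of these were named because they were called in this test or in the male comparison, so their share follows from the choice. For immune genes the male log2 change exceeded the female one by 2.55 for Cd3e, 2.51 for Igkc, 2.28 for Ccl5, 1.87 for H2-Ab1, 1.78 for H2-Eb1, 1.78 for H2-Aa, 1.75 for Lgals3, 1.65 for C1qc, 1.64 for Lyz2, 1.55 for Oasl2 and 1.49 for Oas1a. It also exceeded the female one by 1.44 for C1qb, 1.41 for Ctss, 1.37 for C1qa, 1.37 for Gbp8, 1.19 for H2-Q6, 1.02 for Laptm5, 0.92 for Ifi27, 0.85 for Cxcl16, 0.84 for H2-Q4, 0.80 for Psmb8 and 0.74 for Bst2. Outside these, the male change was higher by 12.72 for Cyp2b13, 4.14 for Gm3839, 3.96 for Slco1a1, 2.71 for Bcl6, 2.42 for Mup20, 1.77 for Bub1b, 1.73 for Cnp, 1.06 for Hsd3b3, 1.04 for Cela1, 0.86 for Dcn and 0.76 for Igfbp7. Cyp2b13 has 0 counts in the young males, so its fitted difference depends on the prior count. The male change was below the female one, as male minus female, by -5.80 for Adcy1, -2.53 for Cish, -2.33 for Onecut1, -1.82 for Cyp2b10, -1.82 for Lratd2, -1.39 for Cd36, -1.30 for Gstp1, -1.01 for Onecut2, -0.76 for Cpt2, -0.75 for Erc1, -0.66 for Smurf2, -0.66 for Atf6, -0.54 for Ugt2b34 and -0.50 for Hadhb. The old females were 20 months old and the old males 24 months old, so sex and old age cannot be told apart.

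Young vehicle male 5, which has FPKM values and no column in the count table used here, lay outside the range of the other young males. Its mean log2(FPKM + 1) was 9.64 for acute phase genes against 6.21 to 8.01, 3.90 for neutrophil markers against 0.098 to 0.38, and 3.20 for monocyte markers against 1.42 to 1.77. Lcn2, an iron-binding acute phase protein, was at 2522 FPKM in this mouse against 8.35 to 283, S100a8 at 222 FPKM against 0.234 to 1.21, and Hamp, which encodes hepcidin, at 67.6 FPKM against 3224 to 8026. According to the study's methods a young male with a wound was left out, but which mouse this was is not given in the sources used here.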

How the results depend on the processing

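The number of genes called in males, 2690, stayed within 1.5 times under DESeq2 (3423), other size factors, no filter, thinning to the smallest library and a fit of the 3 male groups (3051), and leaving out 1 mouse gave 1913 to 2470. It was 4267 of 15293 genes tested with all 6 groups in one fit, where more mice set the spread. It was 1016 at an adjusted p under 0.01 and 965 by limma on FPKM with young male 5. The same-numbered mice of the 2 groups did not deviate together (correlations of 0.017, -0.087, -0.305 and 0.107 for numbers 1 to 4), and a replicate block, which uses up degrees of freedom, called 1316, of which 1256 were among the 2690. In females 3756 became 1874 at an adjusted p under 0.01, 3267 with the block and 2917 to 3792 without 1 mouse. The 523 genes of the sex difference became 1097 with DESeq2, 73 at an adjusted p under 0.01, 379 with the block and 305 to 763 without 1 mouse, with 305 without young male 3, 348 without HDM201 female 2 and 318 without HDM201 female 4. The causes of all these shifts were not tested.

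Among 168 named genes, 3103 alternative values kept direction and side of the threshold, 355 lost the call, 14 gained it and 23 reversed. In the order FPKM + 1, FPKM + 0.1 and FPKM + 1 with young male 5, the reversed values were 0.089, 0.096 and 0.019 for Mdm2, 0.099, 0.136 and 0.067 for Kdm5d, and 0.115, 0.121 and 0.31 for Cela1. Kdm5d was also 0.022 with upper-quartile factors and -0.10 to 0.045 without 1 mouse, and Cela1 was 0.027 with the replicate block and -0.22 to 0.24 without 1 mouse. With young male 5 added on the FPKM scale, Cdkn1b was at 0.084, Mmp9 at -0.00079, Hsd3b3 at 0.262 and Adcy1 at -0.129, and Adcy1 was -0.22 to 0.69 without 1 mouse. None of these genes except Mmp9 was called, and the cause was not tested. Thinning to the smallest library gave 2659 calls.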

Other observations

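Among genes not annotated as protein coding, a pair chosen after their values were seen fell far. Gm43305 stood at 11.6, 16.5, 11.5, 10.6 and 23.4 CPM in the HDM201 males and 1335, 79.3, 289 and 934 CPM in the young males, a log2 fold change of -5.48 ± 0.70 (SE, adjusted p = 0.00135) by edgeR's quasi-likelihood test, and at 20.5, 24.1, 25.9 and 4.56 CPM in old vehicle males 2 to 5. In females it changed by -3.39 (adjusted p = 0.000366). Gm42031, a long noncoding RNA on chromosome 8, was at 5.68 to 91.9 CPM in the young males and held 3 counts over all HDM201 males, with 0 to 0.157 CPM in the old vehicle males. All old mice are C57BL/6J and all young mice C57BL6/N, so a difference between substrains cannot be told apart from one of age or treatment in these genes.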
